A study of Mus musculus with 27 samples.

Results

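The genes described here were 10 members of the matrix metalloproteinase system, namely 6 metalloproteinases (Mmp2, Mmp3, Mmp9, Mmp11, Mmp13 and Mmp14) and the 4 tissue inhibitors of metalloproteinases (Timp1, Timp2, Timp3 and Timp4). They were taken by gene symbol from 24825 genes measured in all 27 samples. The list was chosen with earlier results of these data known. The cells were C2C12, a mouse myoblast line, into which a control vector, full-length NFIA or a deletion mutant of NFIA lacking the C-terminal stretch called pro#3 (Δpro#3 mutant) had been introduced by retrovirus. All cells were given the same adipogenic regimen, an induction medium with isobutylmethylxanthine, indomethacin, dexamethasone, insulin, T3 and rosiglitazone followed by insulin, T3 and rosiglitazone. Each kind of cell was sampled before differentiation (day 0), at day 7, and at day 7 after 10 µM forskolin for 4 h, an activator of adenylyl cyclase that raises cyclic AMP. Each of the 9 groups had 3 samples. The introduced gene is driven by a viral vector, its level exceeds that of the endogenous gene, and no source used here says whether the 3 samples of a group were separate infections or cultures, so the p-values measure only the spread between these samples.

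Matrix metalloproteinases are zinc-dependent proteases that are made as inactive proenzymes and cut collagens, laminin, fibronectin and other matrix and cell-surface proteins. TIMPs bind their active sites, and TIMP2 also takes part with the membrane-bound MMP14 in the activation of pro-MMP2 at the cell surface. In muscle the gelatinases and MMP14 are known for matrix turnover around migrating and fusing myoblasts, and in fat for the remodelling of collagen around growing adipocytes.

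In NCBIM37, the build to which the deposited values refer (mm9), Mmp3 and Mmp13 lay in a run of 10 metalloproteinase genes on chromosome 9 between 7272514 and 7699585. Timp1 on chromosome X (20447292 to 20451861, plus strand) lay within Syn1, Timp3 on chromosome 10 (85763117 to 85812251, plus strand) within Syn3, and Timp4 on chromosome 6 (115195634 to 115201867, minus strand) within Syn2. Each of these TIMP genes was on the strand opposite to its synapsin host. Mmp2 was at chromosome 8, 95351227 to 95377316, Mmp14 at chromosome 14, 55050441 to 55060095, Mmp11 at chromosome 10, 75385967 to 75400678, Timp2 at chromosome 11, 118162383 to 118217054, and Mmp9 at chromosome 2, 164766280 to 164781350.

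The upstream sequences of 4 members are shown because the introduced factor binds DNA and because these members had the widest range among the inhibitors (Timp1 and Timp3) or differed in their order across constructs although they lie in the same run of genes on chromosome 9 (Mmp3 and Mmp13). The bases are those of the RefSeq promoter table (GRCm38.p6), which held 8 of the 10 members, cut at the annotated start of the gene in NCBIM37 and placed there by an exact match. Capitals mark the AP-1 motif TGANTCA, the TATA box TATAAA, the NFI half-site TTGGC and the cyclic AMP response element half-site TGACG, on either strand.
Timp3, chr10:85762907-85763116, plus strand: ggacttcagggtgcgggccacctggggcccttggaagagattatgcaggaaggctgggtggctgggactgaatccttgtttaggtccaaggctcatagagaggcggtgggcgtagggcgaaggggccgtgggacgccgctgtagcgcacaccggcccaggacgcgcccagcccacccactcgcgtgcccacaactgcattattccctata
Timp1, chrX:20447042-20447291, plus strand: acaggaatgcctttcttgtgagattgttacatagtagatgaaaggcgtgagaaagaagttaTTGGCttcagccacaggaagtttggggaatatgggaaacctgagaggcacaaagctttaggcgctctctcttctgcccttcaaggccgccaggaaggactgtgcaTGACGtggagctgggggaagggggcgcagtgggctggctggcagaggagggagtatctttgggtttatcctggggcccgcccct
Mmp3, chr9:7445572-7445821, plus strand: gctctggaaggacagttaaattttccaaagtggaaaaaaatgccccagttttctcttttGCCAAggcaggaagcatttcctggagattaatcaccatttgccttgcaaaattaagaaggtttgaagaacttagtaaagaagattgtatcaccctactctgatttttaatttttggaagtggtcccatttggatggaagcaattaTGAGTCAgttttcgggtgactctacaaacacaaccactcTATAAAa
Mmp13, chr9:7272264-7272513, plus strand: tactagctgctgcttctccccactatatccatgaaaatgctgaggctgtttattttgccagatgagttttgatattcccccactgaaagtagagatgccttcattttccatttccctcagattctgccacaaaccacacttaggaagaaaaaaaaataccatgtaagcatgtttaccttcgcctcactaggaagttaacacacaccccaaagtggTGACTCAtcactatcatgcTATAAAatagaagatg

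Mmp3 and Mmp13 each held an AP-1 motif and a TATA box. The AP-1 motif began 46 bases before the RefSeq start in Mmp3 and 35 bases before it in Mmp13. Among 32851 promoter windows of 250 bases in the table, 6.75% held the AP-1 motif and 12.4% the TATA box. The NFI half-site was present in Mmp3 and Timp1, also in the windows of Timp2 and Timp4, and in 41.5% of all windows. Timp1 also held the half-site TGACG, found in 17.8% of windows, and neither the whole element TGACGTCA (1.55% of windows, and containing the half-site) nor the paired NFI site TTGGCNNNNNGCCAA (0.0365%) occurred in any of the 8 members' windows. The Timp3 window held none of these letters. These matches describe the sequence only.

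Nfia, the gene introduced, was read at 225 to 594 FPKM (fragments per kilobase of transcript, scaled to the sample's counted fragments) in the 9 full-length samples and at 262 to 480 FPKM in the 9 Δpro#3 samples. With forskolin Nfia was lower in Δpro#3 than in full-length samples, by 0.88 ± 0.10 in log2(FPKM + 1) (limma, adjusted p = 1.85e-05). That difference did not pass at day 0 or day 7 (adjusted p = 0.244 and 0.0751). Its part in the results below was not tested. In control samples it was at 0.0885 to 7.35 FPKM, the highest being replicate 2 at day 0, and leaving out that sample changed none of 54 member results. Each sample had 9567769 to 27230965 counted fragments. Summed muscle markers (8 genes) at day 0 were 1093 to 1122 FPKM in control, 135 to 143 in full-length NFIA and 393 to 401 in Δpro#3 samples, and summed adipocyte markers (7 genes) were 40.0 to 48.5, 432 to 459 and 318 to 335 FPKM. At day 7 the muscle markers were 6781 to 7836 FPKM in control, 1294 to 1753 in full-length NFIA and 7898 to 8200 in Δpro#3 samples, and the adipocyte markers were 344 to 380, 13352 to 14841 and 613 to 2006 FPKM. Summed endothelial markers (4 genes) never exceeded 1.43 FPKM and macrophage markers (6 genes) never exceeded 26.7 FPKM, with at most 2 of them over 1 FPKM in a group. Fibroblast markers (4 genes) moved with the construct, from 387 to 402, 549 to 569 and 308 to 314 FPKM at day 0 in control, full-length and Δpro#3 samples to 339 to 370, 267 to 283 and 665 to 989 at day 7 and 360 to 402, 221 to 229 and 509 to 623 with forskolin. The Δpro#3 libraries of replicate 1 stood apart at day 7, with the adipocyte gene Fabp4 at 1415 FPKM against 294 and 354 in the other two, and with forskolin, at 386 against 103 and 137 FPKM. The full-length library of replicate 1 with forskolin also stood apart, with a chi-square of its fragments per gene of 13.5 and 15.0 against the other two, which gave 3.40 between them. Values without these libraries are given below where leaving them out changed a member's call. The part of these shifts in cell type in the results below was not tested, and in such bulk samples fewer cells of a type cannot be told apart from less RNA per cell.

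Of the 10 members, Mmp2, Mmp11, Mmp14, Timp1, Timp2 and Timp3 were measured well above the filter of a mean of 0.5 FPKM, at 15.0 to 399.6 FPKM in all 27 samples and with 342 to 42828 fragments per sample. Mmp3, Mmp9, Mmp13 and Timp4 stayed at or below 1.58 FPKM. Changes of the first 6 members are given below as differences of log2(FPKM + 1) with their standard error, tested with limma and adjusted over all genes tested. A member is said to rise or fall when the adjusted p was below 0.05, and 3-fold refers to FPKM + 1. These tests were sensitive to small changes, since between 4.97% and 79.7% of all genes passed adjusted p alone, depending on the comparison. The 3 construct comparisons at a time share their samples, and so do those that share a group across times.

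**Figure D1:**
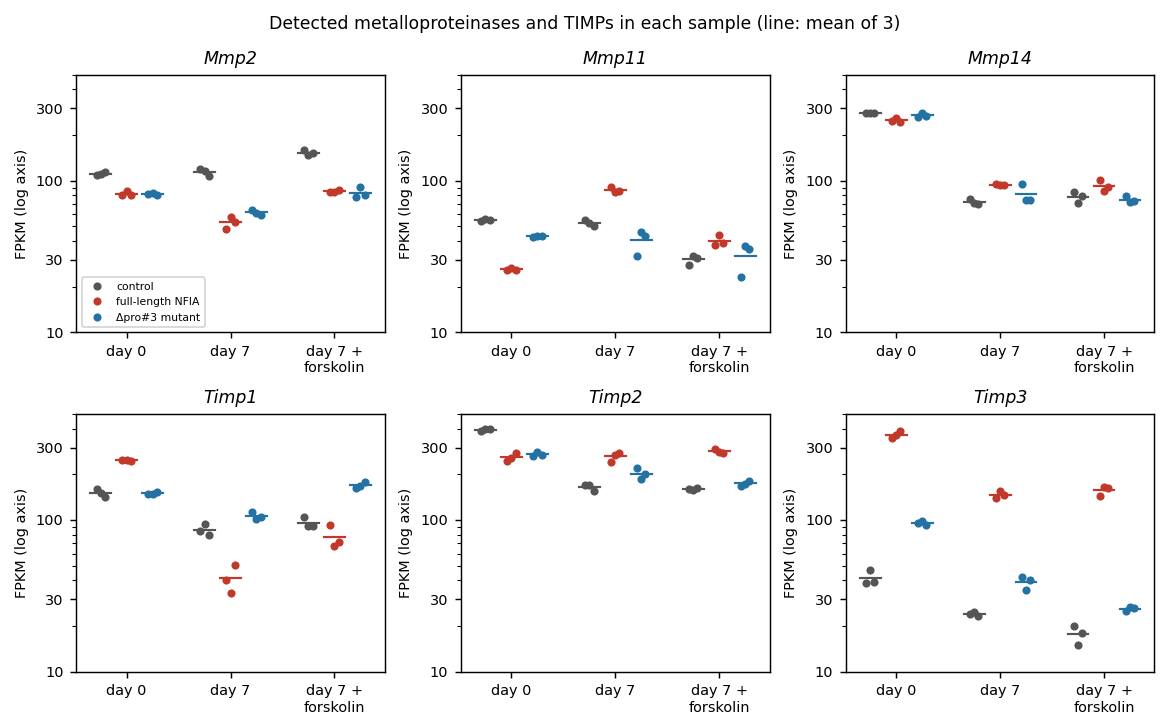
FPKM (log axis) of the 6 well-detected members in each of the 27 samples, by time and construct, with points for samples and a line for the mean of 3. The full-length samples of Timp3 lie above all control and Δpro#3 samples at each time, and those of Mmp11 are the lowest at day 0 (25.9 to 26.7) and the highest at day 7 (84.4 to 90.8).

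Before differentiation, the inhibitor Timp3 was the member that moved most. TIMP3 is bound to the extracellular matrix and also inhibits ADAM proteases such as ADAM17. Control samples at day 0 had 38.3, 46.5 and 39.0 FPKM, full-length samples 346, 363 and 385, and Δpro#3 samples 94.8, 98.9 and 93.0. The 3 groups did not overlap, and the mutant lay between the control and full-length NFIA. The difference to control was 3.12 ± 0.07 on the log2 scale with full-length NFIA (adjusted p = 2.04e-11, 8.67-fold) and 1.196 ± 0.067 with the mutant (adjusted p = 7.94e-08), and the mutant was below full-length NFIA (−1.92 ± 0.07, adjusted p = 2.04e-09).

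Timp1, a secreted inhibitor of broad range, rose with full-length NFIA and was not found to differ from control with the mutant. Its day 0 levels were 159, 150 and 143 FPKM in control, 248, 247 and 245 in full-length and 147, 149 and 152 in Δpro#3 samples. The rise with full-length NFIA was 0.71 ± 0.04 (adjusted p = 2.11e-08), the mutant differed from control by −0.01 ± 0.04 (adjusted p = 0.837, 95% interval −0.09 to 0.07), and the mutant was lower than full-length NFIA by a tested difference (−0.72 ± 0.04, adjusted p = 3.75e-08). Timp2, which also serves as the partner of MMP14, fell with both constructs at day 0, from 387, 400 and 396 FPKM in control to 244, 255 and 275 with full-length NFIA and 265, 278 and 269 with the mutant. The falls were −0.61 ± 0.04 and −0.54 ± 0.04 (adjusted p = 2.32e-07 and 1.15e-06), and the 2 constructs differed by 0.07 ± 0.04, which did not pass the test (adjusted p = 0.188, 95% interval −0.03 to 0.16). Without full-length replicate 3 that difference was 0.11 and passed (adjusted p = 0.0104).

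All 3 proteases were lower with full-length NFIA at day 0. Mmp11, stromelysin-3, which is activated inside the cell by furin, was at 53.9, 55.7 and 55.2 FPKM in control, 25.9, 26.7 and 25.9 in full-length and 42.7, 43.4 and 43.3 in Δpro#3 samples, again without overlap and with the mutant between the other two. Its changes were −1.04 ± 0.03 and −0.34 ± 0.03 (adjusted p = 6.53e-11 and 1.06e-06). Mmp2, gelatinase A, fell from 110, 110 and 114 FPKM to 79.95, 85.4 and 80.1 with full-length NFIA and to 81.2, 82.3 and 80.8 with the mutant (−0.44 ± 0.03 and −0.45 ± 0.03, adjusted p = 3.33e-07 and 5.63e-07), and the constructs differed by −0.01 ± 0.03 (adjusted p = 0.870). Mmp14, the membrane-bound protease, was at 281, 279 and 280 FPKM in control and 248, 259 and 243 with full-length NFIA (−0.16 ± 0.03, adjusted p = 0.00131), and at 263, 280 and 268 with the mutant, which did not pass the test against control (adjusted p = 0.215).

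In counts at day 0, 2 of the 6 members rose and 4 fell with full-length NFIA, where 73.3% of all 12105 genes tested passed the same test, and 1 of them (Timp3) was past 3-fold, against 5.24% of all genes. With the mutant, 1 rose and 3 fell (62.2% of all genes), none past 3-fold (2.18% of all genes). Between the mutant and full-length NFIA, 2 were higher and 2 lower in the mutant (65.3%), with Timp3 past 3-fold (2.05%). All 6 members thus passed with full-length NFIA, and 4 of the 6 in each of the other comparisons. Against control, the 6 members had a median difference of −0.30 (full-length) and −0.20 (Δpro#3), beside 0.01 for all genes in each case.

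**Figure D2:**
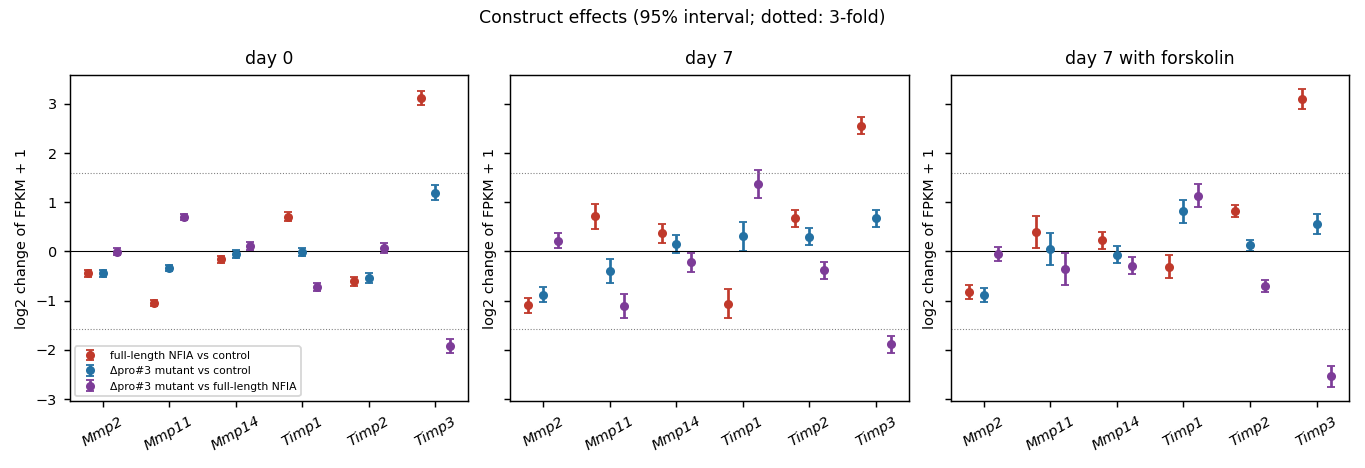
Differences in log2(FPKM + 1) between constructs for the 6 well-detected members at each time, with points for limma estimates, bars for 95% intervals and dotted lines at 3-fold. Timp3 lies past 3-fold for full-length NFIA against control at all 3 times, and for that comparison Mmp11, Mmp14, Timp1 and Timp2 lie on opposite sides of 0 at day 0 and day 7.

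At day 7 Timp3 was still higher with both constructs, by less than at day 0, and several other members had changed sides. Timp3 was at 24.1, 24.8 and 23.4 FPKM in control, 140, 155 and 146 in full-length and 42.3, 34.5 and 40.4 in Δpro#3 samples, still without overlap. The rise was 2.56 ± 0.07 with full-length NFIA (adjusted p = 1.07e-09) and 0.67 ± 0.07 with the mutant (adjusted p = 6.86e-05), and the mutant was below full-length NFIA by 1.89 ± 0.07 (adjusted p = 1.18e-08). Mmp11 was now higher with full-length NFIA, at 90.8, 84.4 and 85.8 FPKM against 54.9, 52.7 and 50.6 in control (0.71 ± 0.11, adjusted p = 0.000223). In Δpro#3 samples it was at 31.8, 45.7 and 43.4 FPKM, all below control (−0.39 ± 0.11, adjusted p = 0.0154), and without replicate 1, whose value is the lowest of the 3, the difference was −0.24 ± 0.06 (adjusted p = 0.00785). It missed the threshold without control replicate 1 (−0.37, adjusted p = 0.0529).

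Timp1 had turned the other way, to 40.2, 32.9 and 50.6 FPKM in full-length samples against 84.7, 94.7 and 79.0 in control (−1.06 ± 0.13, adjusted p = 3.40e-05). Δpro#3 samples had 113, 102 and 105 FPKM, above every control sample, but the difference of 0.31 ± 0.13 did not pass the test (adjusted p = 0.0755), and it did under median-ratio scaling (0.37, adjusted p = 0.0366), by limma-voom on fragments (0.30, adjusted p = 0.0332), in a fit of the 2 groups alone (adjusted p = 0.0117) and without full-length replicate 2 or 3 (adjusted p = 0.0252 and 0.0207). Timp2 was higher with both constructs at day 7, at 242, 269 and 278 FPKM with full-length NFIA and 220, 186 and 200 with the mutant against 171, 169 and 154 in control (0.67 ± 0.08 and 0.29 ± 0.08, adjusted p = 2.18e-05 and 0.0105).

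Mmp2 remained lower with both constructs, at 48.2, 57.5 and 53.5 FPKM with full-length NFIA and 64.4, 61.4 and 59.1 with the mutant against 119, 116 and 108 in control (−1.09 ± 0.07 and −0.88 ± 0.07, adjusted p = 2.37e-07 and 8.26e-06). The mutant was above full-length NFIA, but without mutant replicate 1 that difference of 0.18 missed the threshold (adjusted p = 0.0563). Mmp14 was at 94.6, 93.7 and 93.4 FPKM with full-length NFIA against 75.9, 71.7 and 69.9 in control (0.37 ± 0.09, adjusted p = 0.00286). The mutant had 94.7, 74.1 and 74.7 FPKM, of which replicate 1 alone reached the full-length level. Its difference from full-length NFIA was −0.22 ± 0.09 (adjusted p = 0.0473) with overlapping samples, and −0.33 ± 0.05 (adjusted p = 0.000263) without that replicate. Without mutant replicate 2 or 3 it was −0.16 in both cases and did not pass (adjusted p = 0.167 and 0.159), and it also missed the threshold with no filter on low values, without a trend and in a fit of the 2 groups alone (adjusted p = 0.0729, 0.0613 and 0.0797).

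In counts at day 7, 4 members rose and 2 fell with full-length NFIA (72.4% of 12324 genes passed), 1 of them past 3-fold (8.17%). With the mutant 2 rose and 2 fell (48.8%), or 3 and 2 under median-ratio scaling, none past 3-fold (1.44%). Of the mutant against full-length NFIA, 2 were higher and 4 lower (63.7%), or 1 and 4 under median-ratio scaling, with Timp3 past 3-fold (6.3%). The medians of the members against control were 0.52 and 0.22, beside −0.08 and −0.04 for all genes.

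The change of sides was tested as a difference of construct effects, day 7 minus day 0. For full-length NFIA against control all 6 members differed, 3 upwards and 3 downwards, where 71.2% of all 12408 genes passed. Mmp11 differed by 1.75 ± 0.12 (adjusted p = 1.94e-09), Timp2 by 1.28 ± 0.09 (adjusted p = 2.27e-09), Timp1 by −1.77 ± 0.15 (adjusted p = 1.40e-08) and Mmp14 by 0.53 ± 0.10 (adjusted p = 0.000108), and these are the 4 members whose direction turned. Timp3 differed by −0.56 ± 0.11 (adjusted p = 0.000184). For the mutant against control 3 members differed (44.7% of all genes), with Timp2 up by 0.83 ± 0.09 (adjusted p = 1.69e-06) and Mmp2 and Timp3 down (Timp3 by 0.53 ± 0.11, adjusted p = 0.000761), or 3 up and 2 down under median-ratio scaling. For the mutant against full-length NFIA 2 were up and 3 down (63.5%), with Timp1 at 2.09 ± 0.15 and Mmp11 at −1.81 ± 0.12 (adjusted p = 2.71e-09 and 2.04e-09). Timp3 differed by 0.03 ± 0.11 there (adjusted p = 0.811, 95% interval −0.19 to 0.26), so that no change of the gap between mutant and full-length NFIA was detected.

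Within each kind of cell, Mmp14, Timp1 and Timp3 fell with differentiation, and Timp2 fell in control and Δpro#3 cells. Mmp14 fell from 279 to 281 FPKM at day 0 to 69.9 to 75.9 at day 7 in control cells (−1.94 ± 0.07, adjusted p = 1.41e-13), and by 1.40 ± 0.07 with full-length NFIA and 1.73 ± 0.07 with the mutant (adjusted p = 5.30e-12 and 5.78e-13). Timp3 also fell in all 3, by 0.75 ± 0.08, 1.31 ± 0.08 and 1.27 ± 0.08 in control, full-length and Δpro#3 cells (adjusted p = 8.99e-08, 5.43e-11 and 1.05e-10). Timp1 fell from 245 to 248 FPKM to 32.9 to 50.6 in full-length cells (−2.57 ± 0.10, adjusted p = 4.34e-13), beside −0.80 ± 0.10 in control and −0.49 ± 0.10 in Δpro#3 cells (adjusted p = 1.88e-06 and 0.000401). Timp2 fell by 1.26 ± 0.06 in control cells and by 0.42 ± 0.06 in Δpro#3 cells (adjusted p = 1.62e-11 and 1.43e-05), whereas its change of 0.02 ± 0.06 in full-length cells did not pass the test (adjusted p = 0.747), and did under median-ratio scaling (0.17, adjusted p = 0.0224).

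Mmp11 rose in full-length cells from 25.9 to 26.7 FPKM to 84.4 to 90.8 (1.69 ± 0.09, adjusted p = 1.20e-11), and did not pass the test in control (−0.06 ± 0.09) or Δpro#3 cells (−0.11 ± 0.09). Mmp2 fell in full-length and Δpro#3 cells (−0.62 ± 0.05 and −0.40 ± 0.05, adjusted p = 1.72e-08 and 4.49e-06) and did not pass in control cells (0.04 ± 0.05, adjusted p = 0.558). In counts, none rose and 4 fell in control cells (78.7% of 12408 genes passed), with Mmp14 past 3-fold (6.7%). In full-length cells 1 rose and 4 fell (79.7%), or 2 and 4 under median-ratio scaling, with Mmp11 and Timp1 past 3-fold (10.1%), and in Δpro#3 cells 5 fell (79.5%), with Mmp14 past 3-fold (6.84%). Median-ratio scaling moved the median of all genes by 0.13 in full-length and 0.11 in Δpro#3 cells, and on that scale the changes were 1.84 for Mmp11 and −2.43 for Timp1 in full-length cells and −1.60 for Mmp14 in Δpro#3 cells.

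**Figure D3:**
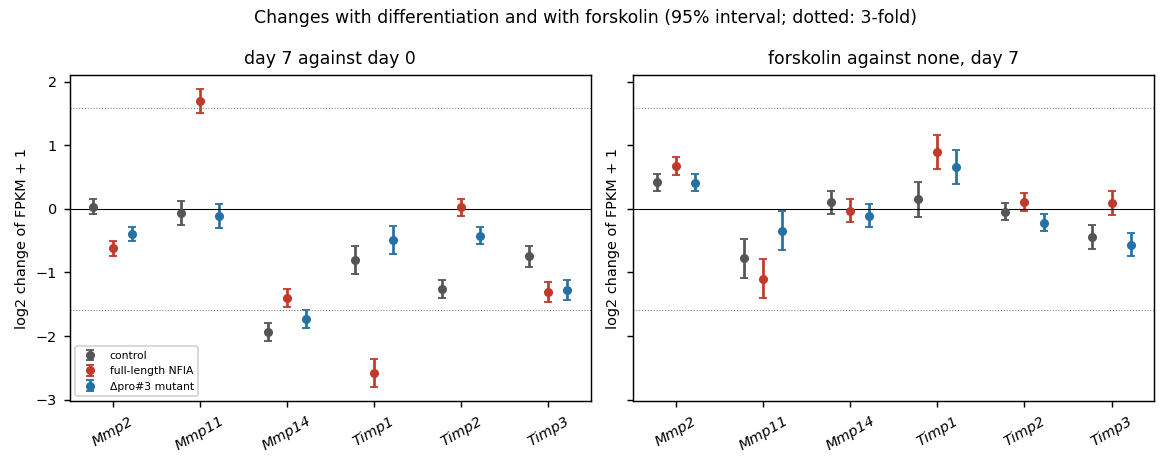
Differences in log2(FPKM + 1) of the 6 well-detected members within each kind of cell, for day 7 against day 0 (left) and forskolin against none at day 7 (right), with points for limma estimates, bars for 95% intervals and dotted lines at 3-fold. Mmp11 in full-length cells is the only well-detected member above the upper 3-fold line with differentiation, and no member crosses a 3-fold line with forskolin.

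Forskolin for 4 h raised Mmp2 in all 3 kinds of cell. Control samples went from 119, 116 and 108 FPKM to 158, 147 and 152 (0.42 ± 0.07, adjusted p = 0.000243), full-length samples to 84.5, 84.3 and 87.4 (0.68 ± 0.07, adjusted p = 3.63e-07) and Δpro#3 samples to 77.8, 90.3 and 79.8 (0.41 ± 0.07, adjusted p = 0.000149). The samples with and without forskolin did not overlap in any of the 3. Mmp11 fell in control cells to 28.0, 31.9 and 31.1 FPKM (−0.78 ± 0.14, adjusted p = 0.000865) and in full-length cells to 37.7, 44.0 and 38.8 (−1.10 ± 0.14, adjusted p = 8.46e-06). In Δpro#3 cells it was at 23.1, 37.2 and 35.3 FPKM, a difference of −0.34 ± 0.14 that did not pass when samples were not paired (adjusted p = 0.0739). Each was below the Δpro#3 sample of the same number without forskolin, and with same-numbered samples of each construct paired the difference was −0.34 ± 0.07 and passed (adjusted p = 0.00401). Without replicate 1 at both times it was −0.29 ± 0.08 and passed (adjusted p = 0.0115). Without only the forskolin library of that replicate it was −0.13 ± 0.11 and did not pass (adjusted p = 0.394). Without only its day 7 library it was −0.50 ± 0.14 and passed (adjusted p = 0.0131).

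Timp1 rose with forskolin in full-length cells, to 92.4, 67.5 and 71.6 FPKM (0.90 ± 0.13, adjusted p = 2.13e-05), and in Δpro#3 cells, to 162, 167 and 178 FPKM (0.66 ± 0.13, adjusted p = 0.000808). In control cells it was at 104, 91.3 and 91.1 FPKM (0.15 ± 0.13, adjusted p = 0.471). Timp3 fell in control cells to 19.95, 15.0 and 17.9 FPKM (−0.44 ± 0.09, adjusted p = 0.00181) and in Δpro#3 cells to 25.2, 26.6 and 26.4 (−0.56 ± 0.09, adjusted p = 0.000126). In full-length cells it was at 143, 165 and 162 FPKM, beside 140, 155 and 146 without forskolin (0.09 ± 0.09, adjusted p = 0.393). The test of the difference of response between full-length and control cells passed for Timp3 (0.53 ± 0.12, adjusted p = 0.00431) and Timp1 (0.75 ± 0.18, adjusted p = 0.00537). Without the full-length library of replicate 1 with forskolin, which holds the highest Timp1 of its group, Timp1 rose by 0.76 ± 0.13 in full-length cells (adjusted p = 0.000136) and the difference of response was 0.61 ± 0.17 (adjusted p = 0.0127). Mmp14 did not pass in any of the 3 kinds of cell (adjusted p = 0.344 to 0.768). Timp2 fell in Δpro#3 cells (−0.21 ± 0.07, adjusted p = 0.0183), but without replicate 1 at both times it was −0.12 ± 0.07 (adjusted p = 0.225). Without only the day 7 or only the forskolin library of that replicate it was −0.15 and −0.19. Neither passed (adjusted p = 0.101 and 0.0636).

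In counts, 1 member rose and 2 fell with forskolin in control cells (20.5% of 12245 genes passed), 2 rose and 1 fell in full-length cells (55.4%), and 2 rose and 2 fell in Δpro#3 cells (35.8%). Under median-ratio scaling, which moved the median of all genes by 0.11 in full-length cells, the counts there were 4 and 1, Timp2 and Timp3 being added (0.24 and 0.23), and in Δpro#3 cells 2 and 1. None was past 3-fold, where the shares of all genes were 0.392%, 0.743% and 0.588%. Of the differences in response, 3 members (Mmp2, Timp1 and Timp3) differed between full-length and control cells (30.6% of all genes), 0 between Δpro#3 and control cells (4.97%) in limma's test (2 at an unadjusted p under 0.05, and 0 by limma-voom on fragments), and 3 between Δpro#3 and full-length cells (21.7%), 1 upwards and 2 downwards, or 1 and 3 under median-ratio scaling. One of these, Timp2 (−0.32, adjusted p = 0.0212), missed the threshold without both Δpro#3 libraries of replicate 1 (−0.23, adjusted p = 0.0881) and without full-length replicate 1 at day 7 (−0.26, adjusted p = 0.0585). With the samples paired, Mmp11 passed between Δpro#3 and control cells (0.44 ± 0.10, adjusted p = 0.0309) and between full-length and control cells (−0.32 ± 0.10, adjusted p = 0.0368). Unpaired, neither passed (adjusted p = 0.255 and 0.257). Deviations of same-numbered samples had correlations of 0.108, −0.0539 and −0.122 in control cells. In full-length cells they were 0.151, 0.0196 and −0.167, so the numbers did not pair the samples of these cells. Mmp2's difference between full-length and control cells (0.26 ± 0.09, adjusted p = 0.0436) missed the threshold with that pairing (adjusted p = 0.0509). It also did when any of 10 single samples was left out, one at a time, among them full-length replicate 1 with forskolin (0.27, adjusted p = 0.0516). Without both Δpro#3 libraries of replicate 1, Mmp11 responded differently in Δpro#3 and control cells (0.49 ± 0.10, adjusted p = 0.00911). Without only the library with forskolin it was 0.65 ± 0.15 (adjusted p = 0.0178), and without only the day 7 library 0.28 ± 0.19 (adjusted p = 0.518). Full-length against control cells also passed without both (adjusted p = 0.0134), but that difference of −0.32 was unchanged. These libraries enter it only through the spread and the adjustment of the joint fit.

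With forskolin present, Timp3 was higher than in control by 3.09 ± 0.09 with full-length NFIA and by 0.55 ± 0.09 with the mutant (adjusted p = 3.31e-10 and 0.000694), and Timp2 was higher with full-length NFIA at 293, 280 and 275 FPKM against 161, 157 and 162 in control (0.82 ± 0.05, adjusted p = 1.48e-07). Timp1 was highest in Δpro#3 samples (0.82 ± 0.11 above control, adjusted p = 0.000119). With full-length NFIA it was lower than control by 0.31 ± 0.11 (adjusted p = 0.0199), but the samples overlapped and under median-ratio scaling the difference was −0.12 (adjusted p = 0.316), and without full-length replicate 1 it was −0.45 (adjusted p = 0.000325). It missed the threshold without control replicate 1 (−0.25, adjusted p = 0.0819) and without full-length replicate 2 or 3 (−0.23 and −0.27, adjusted p = 0.0863 and 0.0689). Mmp2 was lower with both constructs (−0.83 ± 0.06 and −0.88 ± 0.06, adjusted p = 5.07e-07 and 1.85e-06).

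In counts with forskolin, 4 of the 6 members were higher and 2 lower with full-length NFIA than in control (72.5% of 12121 genes passed), or 4 and 1 under median-ratio scaling, with Timp3 past 3-fold (8.02%). One of the 4, Mmp11 (0.39 ± 0.15, adjusted p = 0.0317), missed the threshold with no filter on low values (adjusted p = 0.0673), without control replicate 1 or 3 (0.34 and 0.41, adjusted p = 0.0993 and 0.0577) and without full-length replicate 2 or 3 (0.33 and 0.42, adjusted p = 0.104 and 0.0520). With the mutant 2 were higher and 1 lower (46.6%), or 3 and 1 under that scaling, none past 3-fold (1.55%). Against full-length NFIA 1 was higher and 3 lower in the mutant (66.2%), or 1 and 5 under that scaling, with Timp3 past 3-fold (6.2%). Mmp11 in the mutant did not pass against control (0.04), and passed without mutant replicate 1 (0.25, adjusted p = 0.0292). Mmp14 in full-length cells missed the threshold against control without full-length replicate 1 or control replicate 2 (0.17 in both cases, adjusted p = 0.0657 and 0.0858), and Timp2 in the mutant passed it without that full-length library (0.12, adjusted p = 0.0432). Scaling moved the median of all genes by 0.16 in the first and by −0.12 in the last of these comparisons, and on that scale Timp3 differed by 3.28 and −2.68.

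The low members gave few fragments, and fold changes of FPKM + 1 say little about them, so their fragments are given. Mmp3, stromelysin-1, was detected mainly after differentiation. At day 7 control samples had 16, 22 and 11 fragments (0.584, 0.726 and 0.521 FPKM), full-length samples 0, 1 and 1, and Δpro#3 samples 8, 10 and 6. Per counted fragment, control samples had 23.3 times the full-length level (95% interval 6.11 to 198) and 2.38 times the mutant level (1.43 to 4.05), with exact intervals from the summed fragments that cover counting error only. Such intervals were computed only where the compared samples did not overlap, so they lend that separation no further support. With forskolin, control samples had 49, 53 and 26 fragments (1.24, 1.58 and 1.14 FPKM), above every full-length (0.0635 to 0.530 FPKM) and Δpro#3 sample (0.165 to 0.526 FPKM). At day 0 it had 4, 1 and 3 fragments in all control, full-length and Δpro#3 samples together. It passed the filter on low values with forskolin alone, through its control samples, and is therefore left out of all counts above.

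Mmp13, collagenase-3, showed a different order. Δpro#3 samples had 7, 12 and 10 fragments at day 7 (0.231, 0.204 and 0.211 FPKM) and 8, 9 and 16 with forskolin (0.202, 0.200 and 0.235 FPKM), whereas no other sample exceeded 4 fragments or 0.0983 FPKM. At day 7 the mutant level was 12.5 times that of control (95% interval 3.15 to 108, 29 against 2 fragments) and 7.89 times that of full-length NFIA (2.45 to 40.5). In the same run on chromosome 9, the collagenase gene Mmp8, which is no member and was named after its values were seen, had 1.87, 1.47 and 1.13 FPKM in Δpro#3, 0.482, 0.751 and 0.487 in control and 0.0426, 0 and 0 in full-length samples at day 7. With forskolin the Δpro#3 samples had 1.49, 0.508 and 0.482 FPKM of Mmp8 and overlapped the control samples, at 0.501, 0.461 and 0.513 (exact permutation test, two-sided, p = 0.5). For Mmp3, Mmp13 and Mmp8 alike, the exact permutation test of 3 samples against 3 (two-sided) gave p = 0.1 where samples did not overlap, which is the smallest p this design allows.

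Timp4, the inhibitor known for its narrow expression in heart, muscle and fat, was near 0 at day 0 (0 to 0.0404 FPKM) and at 0.134, 0.364 and 0.551 FPKM in control, 0.178, 0.132 and 0.149 in full-length and 0.301, 0.232 and 0.115 in Δpro#3 samples at day 7. Day 7 lay above day 0 without overlap in all 3 kinds of cell, with 43 against 3, 18 against 5 and 31 against 1 fragments, and the constructs overlapped at day 7. With forskolin, full-length samples had 0.0695, 0.0389 and 0.0670 FPKM, below every control sample (0.201, 0.274 and 0.0802) and every Δpro#3 sample (0.0919, 0.141 and 0.0937). Per counted fragment the full-length level was 0.290 times that of control (95% interval 0.115 to 0.645, 8 against 31 fragments), and the exact permutation test gave its smallest p of 0.1. Mmp9, gelatinase B, gave 35 fragments in all 27 samples together and never exceeded 0.0988 FPKM. None of its fragments came from the 3 Δpro#3 samples with forskolin. At the depths here 3 fragments correspond to 0.0347 to 0.0988 FPKM for Mmp9, so differences below that could not be detected.

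**Figure D4:**
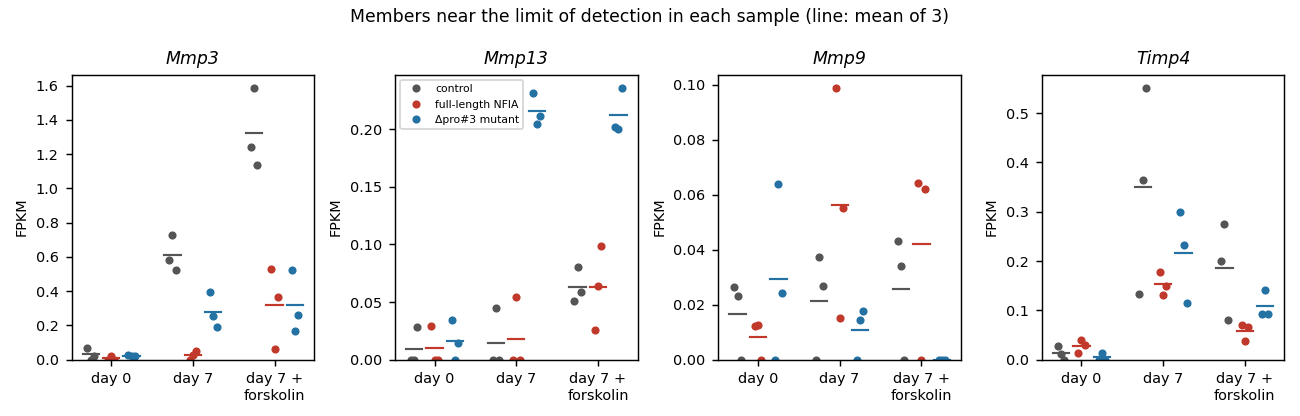
FPKM (linear axes, each from 0) of the 4 members near the limit of detection in each of the 27 samples, with points for samples and a line for the mean of 3. Mmp3 is highest in control samples at day 7 and with forskolin, and Mmp13 stands out in the 6 Δpro#3 samples after differentiation, at 0.200 to 0.235 FPKM.

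Because FPKM is per transcript length, levels can be summed over genes. Timp3 made up 7.04% ± 0.67 (SD, n = 3) of the summed TIMP FPKM in control cells at day 0, 41.9% ± 0.62 in full-length and 18.5% ± 0.37 in Δpro#3 cells. At day 7 the shares were 8.77% ± 0.29, 32.6% ± 1.69 and 11.2% ± 0.48. Timp1, by contrast, made up 9.13% ± 1.77 of the TIMP sum in full-length cells at day 7 and 30.7% ± 0.80 in Δpro#3 cells, and 45.8% ± 0.40 in Δpro#3 cells with forskolin, the largest share it had in any of the 9 groups. The summed MMP level was 446 ± 2.66, 358 ± 11.5 and 395 ± 10.0 FPKM at day 0 and 240.0 ± 10.6, 234 ± 1.46 and 184 ± 7.14 FPKM at day 7 in control, full-length and Δpro#3 cells. The ratio of summed MMP to summed TIMP was 0.762 ± 0.016, 0.412 ± 0.023 and 0.766 ± 0.0052 at day 0 and 0.874 ± 0.033, 0.520 ± 0.032 and 0.529 ± 0.029 at day 7. The Δpro#3 samples thus overlapped control samples at day 0 and full-length samples at day 7. With forskolin the ratios were 0.962 ± 0.011, 0.422 ± 0.0046 and 0.515 ± 0.029 in the same order, and no groups overlapped. These ratios describe RNA and were not tested.

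Within the MMP sum, Mmp14 made up 62.7% ± 0.46 in control cells at day 0 and 30.2% ± 0.38 at day 7, when Mmp2 led with 47.6% ± 0.42. In full-length cells at day 7 Mmp14 (40.1% ± 0.35) and Mmp11 (37.2% ± 1.55) led and Mmp2 held 22.7% ± 1.90. The ratio of Mmp14 to Timp2 was 0.710 ± 0.014, 0.970 ± 0.076 and 0.999 ± 0.0082 at day 0 and 0.441 ± 0.015, 0.359 ± 0.029 and 0.401 ± 0.029 at day 7 in the same order.

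**Figure D5:**
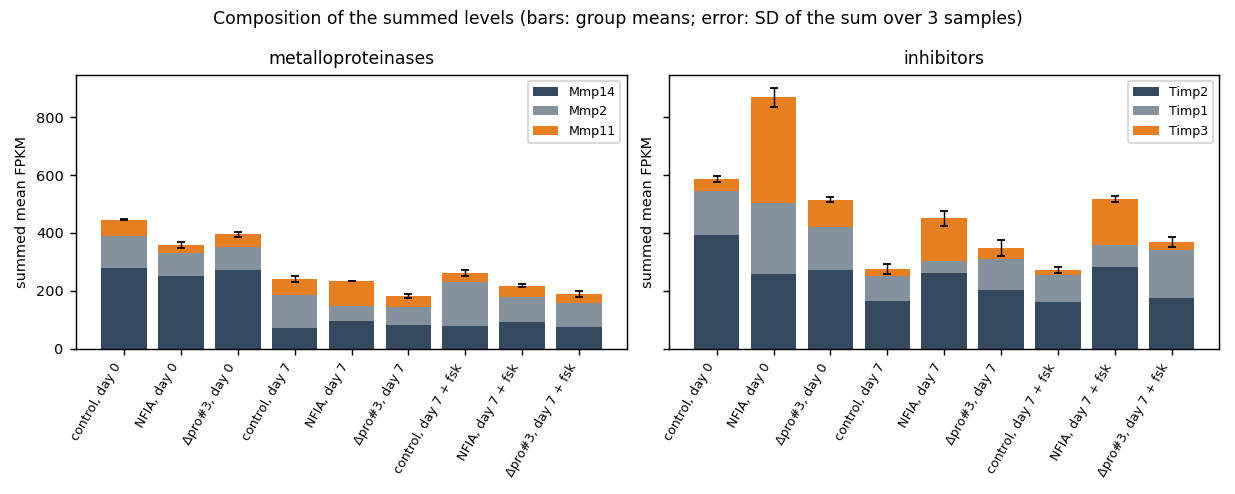
Group means of FPKM stacked over the 3 well-detected metalloproteinases (left) and inhibitors (right) in the 9 groups, with error bars for the SD of the sum over 3 samples. The inhibitor sum is highest in full-length cells at day 0, where Timp3 makes up 41.9% of it, and the metalloproteinase sum falls from day 0 to day 7 in all 3 kinds of cell.

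Over the 9 group means, the members did not move as a block. Pearson's r of log2(FPKM + 1) between members ranged from −0.73 (Mmp11 with Timp1) to 0.76 (Mmp14 with Timp2), a description over 9 points, each the mean of the 3 samples in which both genes were read. Among 11582 genes with a mean of 1 FPKM or more, those most like Timp3 over the 9 means were Fuca1 (0.99), a lysosomal fucosidase, Cdhr1 (0.98) and Slc7a11 (0.97), the cystine transporter. Those most like Mmp14 were Egr3, Fn1 and Ptn (all 0.99), of which Fn1 encodes fibronectin. Calu, Snrpe and Slc39a6 were most like Timp1 (0.96, 0.95 and 0.94), and Spef1, Ctif and Acad10 most like Mmp11 (0.94, 0.94 and 0.93). The synapsin genes that host 3 of the TIMPs were at 5.61 FPKM or less in every sample, and Syn3, the host of Timp3, never exceeded 0.0224 FPKM.

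The wider protease network was counted over lists of related genes. Of the 17 other MMP genes, 5 passed the filter at day 0, of which 1 rose and 2 fell with full-length NFIA and 3 rose and 2 fell with the mutant, where 73.3% and 62.2% of all genes passed. Mmp15, a membrane-bound protease like MMP14, was at 7.66, 8.11 and 8.35 FPKM in control, 0.858, 0.651 and 1.06 in full-length and 0.708, 0.621 and 0.536 in Δpro#3 samples, falling by 2.29 ± 0.08 and 2.48 ± 0.08 (adjusted p = 7.63e-10 and 1.10e-09). At day 7 it was at 9.85, 10.7 and 10.0 FPKM with full-length NFIA against 5.39, 4.88 and 4.15 in control (0.95 ± 0.09, adjusted p = 3.28e-06), and at 1.78, 1.99 and 1.78 FPKM with the mutant, which was still below control (−1.02 ± 0.09, adjusted p = 1.20e-05). Of the 10 ADAM genes, 7 were tested at day 0, and 4 rose and 2 fell with full-length NFIA, beside the same 73.3% of all genes. Adam12 rose (1.85 ± 0.07) and Adam19 fell (−1.77 ± 0.04). At day 7, 2 of 8 tested rose and 4 fell (72.4% of all genes), with a median of −0.26 beside −0.08 for all genes. Adam19 was again lower (−1.79 ± 0.10, adjusted p = 7.48e-08), and Adam15 rose to 146, 154 and 157 FPKM against 22.5, 23.7 and 22.4 in control (2.69 ± 0.06, adjusted p = 1.69e-10).

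Of the 18 ADAMTS genes, which cut proteoglycans and procollagens, 12 were tested at day 0, and 5 rose and 7 fell with full-length NFIA (73.3% of all genes), with a median of −1.74 beside 0.01 for all genes. At that time Adamts7 and Adamts14 fell by 2.79 ± 0.05 and 2.75 ± 0.06 (adjusted p = 4.73e-12 and 2.68e-11). Adamts9 rose at day 0 from 0.258, 0.493 and 0.381 FPKM in control to 15.7, 16.2 and 16.7 (3.65 ± 0.07, adjusted p = 9.53e-12), and was at 2.59, 2.14 and 2.26 FPKM with the mutant. With the mutant, 2 ADAMTS genes rose and 8 fell at day 0 (62.2% of all genes), with a median of −0.72. At day 7, 3 of 11 ADAMTS genes rose and 5 fell with full-length NFIA (72.4% of all genes), with a median of −0.17 beside −0.08, and Adamts9 was again higher (2.39 ± 0.12, adjusted p = 3.77e-08).

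Plasminogen activation, which feeds the pro-MMP cascade, was measured over 8 genes, of which 5 were tested. At day 0, 3 rose and 2 fell with full-length NFIA, where 73.3% of all genes passed. With the mutant 1 rose and 1 fell (62.2%). The medians were 0.17 and 0.01, beside 0.01 for all genes in each case. Plau, urokinase, was at 136, 120 and 129 FPKM in control, 15.1, 15.7 and 17.4 in full-length and 34.9, 36.5 and 35.2 in Δpro#3 samples at day 0 (−2.92 ± 0.05 and −1.82 ± 0.05, adjusted p = 7.20e-12 and 5.81e-10). Serpine2 (protease nexin-1), an inhibitor of serine proteases, rose with both constructs at day 0 (3.41 ± 0.08 and 2.85 ± 0.08, adjusted p = 2.85e-11 and 3.12e-10). With forskolin in full-length cells Serpine2 rose again, from 18.7, 21.9 and 17.3 to 65.3, 56.1 and 63.9 FPKM (1.63 ± 0.10, adjusted p = 1.64e-09).

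Among the 13 genes for pro-MMP activators, partners and other inhibitors, 10 were tested at day 7, of which 4 rose and 2 fell with full-length NFIA and 6 rose and 1 fell with the mutant, where 72.4% and 48.8% of all genes passed. Lcn2, whose product binds pro-MMP9, was at 94.6, 103 and 80.3 FPKM in full-length samples at day 7, against 0.0770 to 0.488 in control (6.27 ± 0.23, adjusted p = 3.98e-09), whereas Mmp9 itself was at 0.0988, 0.0153 and 0.0551 FPKM in the same full-length samples. Lrp1, a receptor that clears MMPs and TIMPs from the cell surface, rose (1.69 ± 0.09, adjusted p = 8.61e-08), and Thbs2, a matrix protein that binds MMP2, fell (−1.81 ± 0.10, adjusted p = 6.55e-08). Of the 8 genes for cathepsins and cystatins, 6 were tested, and 3 rose and 3 fell with full-length NFIA at day 0 and again at day 7, where 73.3% and 72.4% of all genes passed. None was past 3-fold, beside 5.24% and 8.17% of all genes.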

How the data were processed

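RNA-seq (TruSeq Stranded mRNA) was done on 27 samples of C2C12 cells in 9 groups of 3, grouped by the construct and time that their labels give. Per the study's methods, the authors aligned reads to mm9 with STAR (2.5.3a), counted uniquely mapped fragments on the matching strand and deposited FPKM per gene. Whole fragments (within 0.01 for all values) could be recovered from FPKM, and these gave depths of 9567769 to 27230965 fragments per sample (median 17707223).

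Differences were tested on log2(FPKM + 1) with limma (3.58.1, R 4.3.3, moderated with a trend) over all genes with a mean of 0.5 FPKM or more in the fitted samples, and adjusted by Benjamini-Hochberg over them. Fits held 9 samples for construct comparisons at a time and 18 for time and forskolin. Calls used adjusted p under 0.05, with or without a 3-fold change of FPKM + 1. Recovered fragments gave exact 95% intervals for low genes, which cover counting error only and were computed only where the compared samples did not overlap. Other steps used Python 3.11.15, numpy 2.4.6, scipy 1.17.1 and matplotlib 3.10.9, and the fits were tested on simulated data. Alternatives were another pseudocount (0.1), filter (5 FPKM or none) and scaling (median ratio), limma-voom on fragments, no trend, 2-group fits, a replicate block, across constructs or within each, and leaving out samples.

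All 10 members are named. Of each related list, up to 3 genes are named that had the largest change among those past adjusted p and 3-fold with full-length NFIA against control at day 0 or day 7, or with forskolin in full-length cells. A result that this rule would name is not reported here. Likeness was computed for members whose group means of FPKM + 1 ranged over 3-fold. The members and lists were chosen with earlier results of these data known. Mmp8 was added after its values were seen.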

Additional observations from a re-analysis of the deposited data

Results flagged for a closer look

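The effect of full-length NFIA differed between day 0 and day 7 for all 6 well-detected members by limma's test of the difference of construct effects, and 4 of them (Mmp11, Mmp14, Timp1 and Timp2) had opposite directions at the 2 times. Mmp11 and Timp1 are the 2 whose difference was past 3-fold. For Mmp11, every full-length sample was below every control sample at day 0 and above at day 7, and the difference was 1.75 ± 0.12 on the log2 scale (adjusted p = 1.94e-09). For Timp1 the order was the reverse, above control at day 0 and below it at day 7, and the difference was −1.77 ± 0.15 (adjusted p = 1.40e-08). Set against the Δpro#3 mutant, the same genes differed between the times by −1.81 ± 0.12 for Mmp11 (adjusted p = 2.04e-09) and by 2.09 ± 0.15 for Timp1 (adjusted p = 2.71e-09), mutant minus full-length NFIA. The comparisons share their full-length samples. Summed adipocyte markers moved with them, from 432 to 459 FPKM at day 0 to 13352 to 14841 FPKM at day 7 in full-length cells, and their part in the result was not tested.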

How the results depend on the processing

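No difference of a member that passed the test changed its direction under any alternative run, whereas 14 differences that did not pass it, of at most 0.11 on the log2 scale, changed sign under at least 1. With limma-voom on fragments and with a pseudocount of 0.1, the members past 3-fold with forskolin were 2 in place of 1 for full-length NFIA against control and 1 in place of 0 for the mutant against control, where the added gene was Mmp3, which passed the filter only through its control samples and lends these counts no support. Without it they were 1 and 0. The members whose construct effect differed between the times for the mutant against control were 5 in place of 3 under median-ratio scaling (Mmp14 and Timp1 added) and with no filter on low values (the low members Mmp3 and Mmp13 added). For the response to forskolin of the mutant against control the count was 0 to 1 over fits that each left out 1 sample, being 1 without the forskolin-treated Δpro#3 sample of replicate 1, and 1 again without both Δpro#3 samples of replicate 1 and with a replicate block within each construct, alternatives chosen after seeing the data. The cause was not tested.

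Of 1809 values from fits that left out 1 sample, 1756 kept their side of the threshold, 36 lost it and 17 gained it, and under median-ratio scaling 116 of 129 kept it, 3 lost it and 10 gained it. Mmp14 in the mutant against full-length NFIA at day 7, at −0.22, lost its call in 8 of the fits that left out 1 sample. Between constructs at 1 time, replicate numbers did not pair the samples, since deviations of same-numbered samples had mean correlations of 0.0139, −0.0314 and −0.00195 at the 3 times. Between day 7 and forskolin, Δpro#3 cells met the rule of correlations over 0.1 in every pair (0.358, 0.156 and 0.102). Control and full-length cells did not. In Δpro#3 cells the highest correlations with samples of another number were −0.164, 0.115 and 0.242. Replicate 3 was thus closer to another number, so the numbers are no sure pairing there either. The block within each construct changed 4 of 36 calls, of which Mmp11 gained 3 and Mmp2 lost 1. A replicate block across constructs changed 2 of 129 calls, both gained by Mmp11, in the mutant against full-length NFIA with forskolin (−0.35, adjusted p = 0.0150, but −0.14 and adjusted p = 0.145 in the unblocked fit without mutant replicate 1) and in forskolin against none in Δpro#3 cells (adjusted p = 0.0416). Depth limits Mmp3, Mmp9, Mmp13 and Timp4, which had 268, 35, 91 and 158 fragments in all samples together.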
